A study of Homo sapiens with 20 samples.

Results

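A set of 10 genes used as markers of a dedifferentiated melanoma cell state, NGFR, WNT5A, SOX9, SOX2, AQP1, TNC, LOXL2, NT5E, CD44 and NES, were followed in 2 human melanoma cell lines, A375 and 1205Lu, in which the AP-1 transcription factor FRA1 (gene FOSL1) was silenced. The 10 genes were chosen by symbol from a table of 58870 genes, and every one was measured and passed the filter on low counts in both lines. RNA sequencing covered 4 groups of 3 samples, namely A375 with non-targeting siRNAs (si-NT), A375 with siRNAs against FRA1 (si-FOSL1), 1205Lu with si-NT and 1205Lu with si-FOSL1. FRA1 Cut&Run, which releases the DNA that an antibody-bound protein sits on, covered 3 FRA1 samples and 1 IgG control sample of each line, and the labels name no siRNA for these. Of 54563 consensus peaks, 75 lay within 50 kb of a marker gene. Nothing in the sources used here says that replicates came from separate cultures, so p-values measure the spread between these samples, which may be technical. The siRNA sequences and the time of silencing are not given in the sources used here.

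Melanoma cells can lose the pigment programme of the melanocyte, which is held by the transcription factor MITF, and take on features of the neural crest or of mesenchymal cells. NGFR, SOX2, AQP1 and NES are often read as neural crest or stem-like genes, and WNT5A, SOX9, TNC, LOXL2, NT5E and CD44 as genes of invasive, mesenchymal-like cells. FRA1 belongs to the FOS family and binds DNA as a dimer with a JUN protein, typically at the palindromic AP-1 site.

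RNA libraries held between 20573412 and 32518903 counts. FOSL1 itself went from 412.6, 423.8 and 407.5 CPM (counts scaled to a library of fixed size) with si-NT to 25.7, 25.7 and 26.0 CPM with si-FOSL1 in A375, a log2 change of -4.01 ± 0.0300 (SE, n = 3 per group). In 1205Lu, FOSL1 went from 492.3, 483.7 and 477.7 CPM to 69.4, 70.9 and 65.1 CPM, a log2 change of -2.84 ± 0.0291 (SE, n = 3 per group). FOSL1 was thus lowered in every silenced sample, and less so in 1205Lu (difference of the log2 changes 1.19 ± 0.0443, adjusted p = 1.24e-16 in edgeR). The markers of keratinocytes (KRT5, KRT14), leukocytes (PTPRC, CD3E) and endothelium (PECAM1, VWF) had group means between 0.0102 CPM for CD3E and 1.4 CPM for VWF.

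Sequences around the AP-1 site are shown for the peaks near a marker that met the rule for description (the strongest A375 peak of each gene, promoter peaks and peaks enriched over IgG in both lines) and held the site within 100 bp of their centre. An intronic LOXL2 peak enriched in both lines also met this rule, and its sequence is not shown. Promoter peaks are those within 3 kb of any annotated start of the gene, which can lie well inside it. The site is TGACTCA, or TGAGTCA when read on the other strand, and stands in capitals. Each line gives 61 bases of the plus strand of GRCh38, 5′ to 3′, at chr17:49508557-49508617 for NGFR, chr3:55491372-55491432 for WNT5A, chr7:30914837-30914897 and chr7:30920823-30920883 for AQP1, and chr9:115109590-115109650 for TNC.
NGFR intronic peak: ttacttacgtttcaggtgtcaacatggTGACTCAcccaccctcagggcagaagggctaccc
WNT5A promoter peak: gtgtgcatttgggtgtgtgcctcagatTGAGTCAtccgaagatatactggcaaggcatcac
AQP1 first promoter peak: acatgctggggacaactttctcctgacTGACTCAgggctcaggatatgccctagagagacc
AQP1 second promoter peak: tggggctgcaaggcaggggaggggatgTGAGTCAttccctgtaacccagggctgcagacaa
TNC promoter peak: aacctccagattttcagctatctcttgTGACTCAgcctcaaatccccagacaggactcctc
A match to these letters is a description of the sequence and does not show that FRA1 sits on it.

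The first question was how the markers stood in the 2 lines before silencing. With si-NT, all 10 differed between the lines, 7 higher in 1205Lu and 3 higher in A375, by 2 criteria, an adjusted p below 0.05 and a log2 difference past 1 in size (edgeR quasi-likelihood test, Benjamini-Hochberg over 19452 genes). By the same rule 20.9% of all tested genes were higher in 1205Lu and 19.7% were higher in A375. The median absolute log2 difference was 2.56 over the markers and 0.829 over all tested genes. NES, an intermediate filament of neural progenitors, differed most, with 1236, 1218 and 1243 CPM in 1205Lu and 19.4, 18.5 and 18.6 CPM in A375, a log2 difference of 6.03 ± 0.0384 (SE). TNC, the matrix glycoprotein tenascin C, had 2717, 2742 and 2763 CPM in 1205Lu against 51.7, 56.0 and 54.9 CPM in A375, a log2 difference of 5.66 ± 0.0227 (SE). SOX2, a stem-cell transcription factor, differed by 3.29 ± 0.153, the hyaluronan receptor CD44 by 2.59 ± 0.0152 and the transcription factor SOX9 by 2.53 ± 0.0235 on the log2 scale. The ectonucleotidase NT5E (CD73) differed by 1.27 ± 0.0236 and the collagen cross-linking enzyme LOXL2 by 1.07 ± 0.0269. In the other direction stood AQP1, a water channel (-2.85 ± 0.204), WNT5A, a secreted ligand of non-canonical WNT signalling (-1.42 ± 0.0466), and NGFR, the low-affinity neurotrophin receptor (-1.31 ± 0.149). The markers thus did not all stand higher in the same line.

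**Figure D1:**
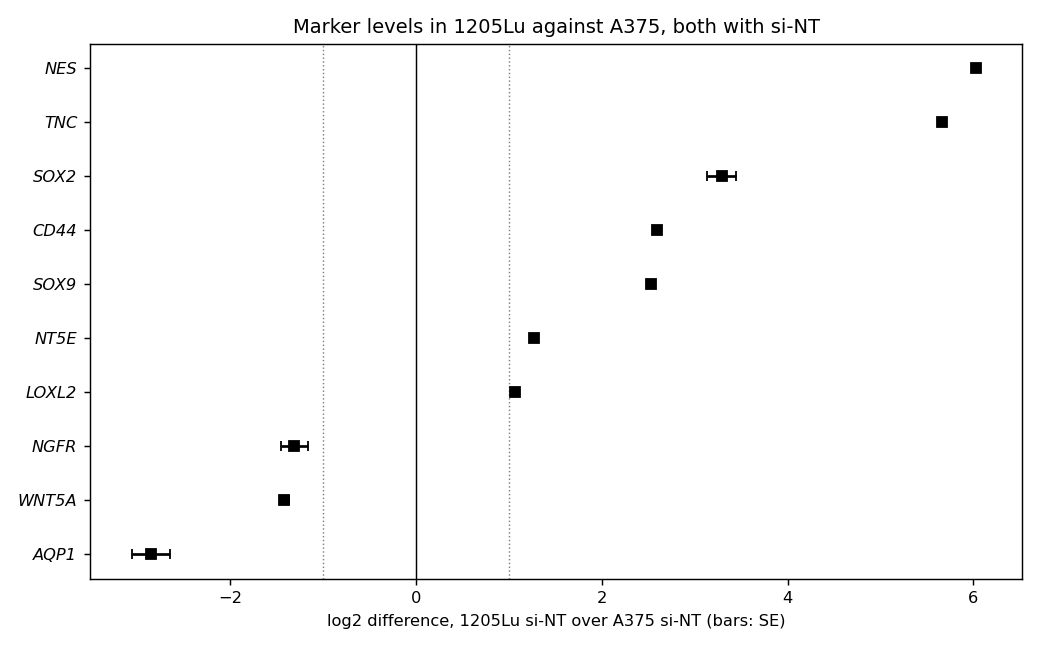
Log2 difference of each marker between 1205Lu and A375, both with si-NT (squares; bars are standard errors; dotted lines mark an absolute log2 difference of 1). The 7 markers higher in 1205Lu lie to the right, up to 6.03 for NES, and AQP1, WNT5A and NGFR lie to the left.

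Levels of different genes were compared per length of exon. In A375 with si-NT, NT5E (46.6 ± 0.618 CPM per kb, SD, n = 3) and CD44 (45.7 ± 0.419) were highest, followed by LOXL2 (31.5 ± 0.672) and SOX9 (28.7 ± 0.636). NGFR (1.88 ± 0.312) and AQP1 (1.96 ± 0.145) did not differ beyond their spread, and SOX2 was lowest at 0.547 ± 0.0903 CPM per kb. In 1205Lu with si-NT the order was led by TNC (286 ± 2.4 CPM per kb, SD, n = 3), CD44 (275 ± 1.42), NES (221 ± 2.32) and SOX9 (165 ± 2.83), with NGFR (0.753 ± 0.101) and AQP1 (0.269 ± 0.0586) lowest.

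The label of a dedifferentiated state was checked against the melanocytic lineage genes. Of 16 such genes, 7 passed the low-count filter within each line. With si-NT, the pigment enzyme TYR stood at 0.0861 CPM in A375 and 0.144 CPM in 1205Lu, and the melanosome gene MLANA at 0.0973 and 0.323 CPM. RAB27A, which serves melanosome transport, was higher at 6.36 and 11.8 CPM. Of the lineage transcription factors, MITF stood at 52.2 CPM in A375 and 3.55 CPM in 1205Lu, and SOX10 at 43.96 CPM in A375 and 913.7 CPM in 1205Lu. PAX3 stood at 17.1 CPM in A375 and 44.1 CPM in 1205Lu, and EDNRB at 4.18 and 2.55 CPM. In both lines TYR and MLANA were near 0 while RAB27A, SOX10, PAX3, EDNRB and MITF were present, MITF mainly in A375.

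The second question was whether silencing FRA1 changed the markers. In A375, 9 of 10 passed an adjusted p of 0.05, 5 higher and 4 lower, where 25.7% of all 16899 tested genes were higher and 25.1% lower. With the limit on the log2 change added, 2 were called higher (NES, AQP1) and 1 lower (SOX9), against 2.77% and 2.79% of all tested genes. In 1205Lu, 8 of 10 passed the adjusted p, 4 higher and 4 lower, against 20.6% and 19.9% of 17136 genes, and with the fold limit only NGFR was called, as higher, where 1.09% of genes were called higher and 2.04% lower. The median log2 change of the markers was 0.18 in A375 and -0.08 in 1205Lu, beside medians of 0.00 and -0.01 over all tested genes. The markers therefore moved in both directions in each line, and "rose" and "fell" below are used for an adjusted p under 0.05, and "called" where the log2 change also passed 1.

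**Figure D2:**
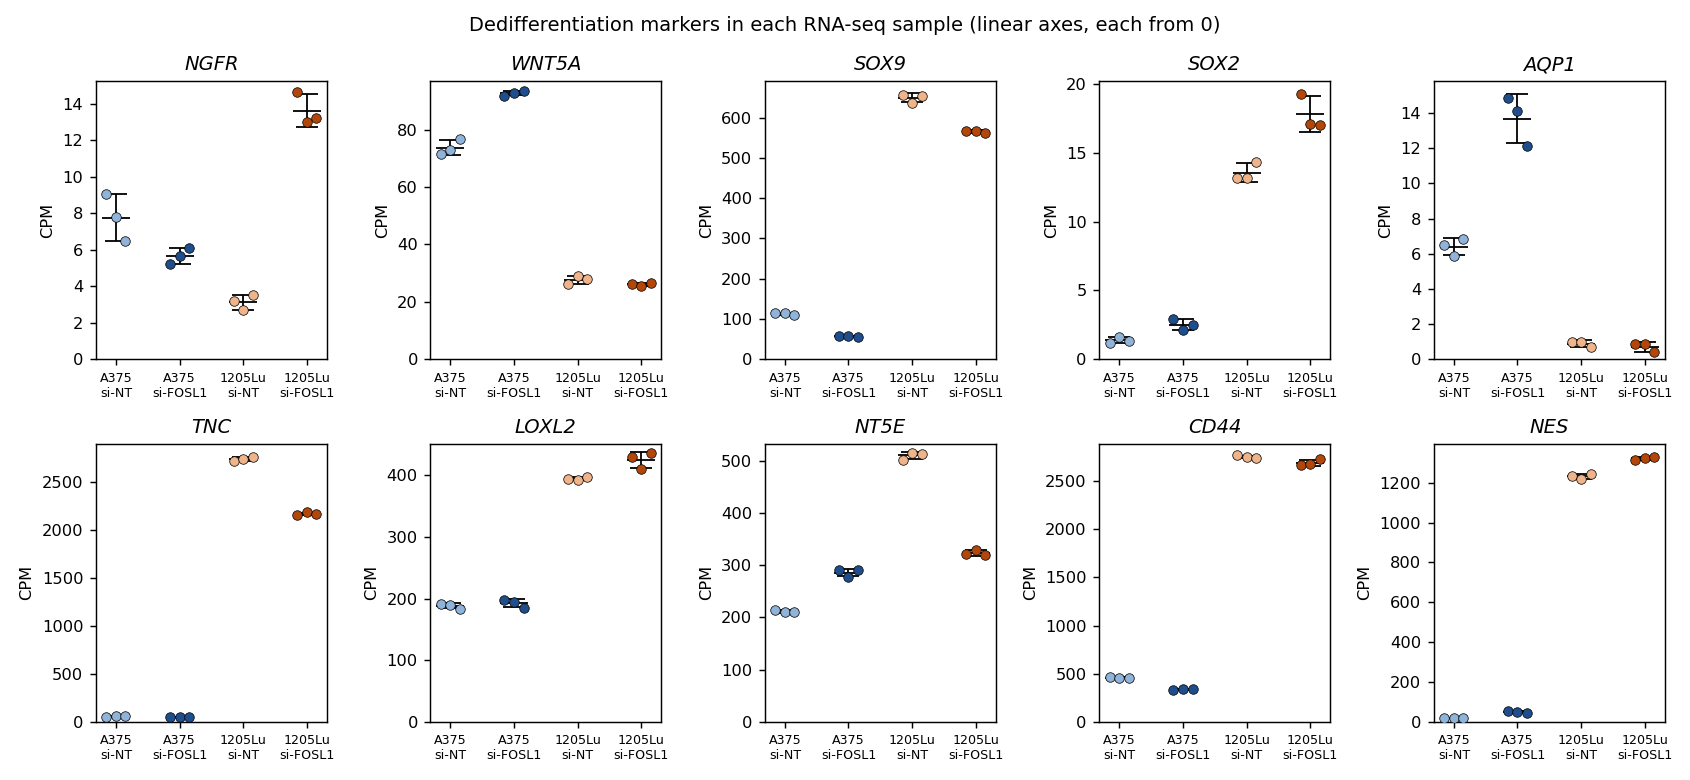
CPM of each marker (vertical axes, linear and from 0) in the 12 RNA samples; points are samples, bars the mean and SD of 3. In A375 the si-NT and si-FOSL1 samples do not overlap for any marker but LOXL2, and in 1205Lu they do not overlap for any but WNT5A and AQP1.

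Among the receptors and ligands, NGFR fell in A375 and rose in 1205Lu. In A375, the si-NT samples read 9.05, 7.79 and 6.46 CPM and the silenced samples 5.24, 5.68 and 6.11 CPM, so the groups were apart by a narrow gap. It fell by 0.46 ± 0.138 on the log2 scale (SE, adjusted p = 7.59e-03, edgeR), and without si-NT replicate 1 it no longer passed the test (-0.34, adjusted p = 0.0639, edgeR). In 1205Lu, the control samples read 3.19, 2.67 and 3.50 CPM, the silenced ones 14.7, 12.99 and 13.2 CPM, and every silenced sample was above every control. It rose 4.30-fold (log2 change 2.1 ± 0.138, adjusted p = 1.50e-10, edgeR), and 0.21% of all genes tested in 1205Lu changed by more. The difference between the lines was 2.58 ± 0.200 on the log2 scale (adjusted p = 1.50e-10, edgeR interaction test over all 12 samples). NGFR overlaps MIR6165 on its strand and NGFR-AS1 on the other. The authors describe strand-specific libraries, but the strand setting of the counting is not stated, so their reads cannot be fully told apart.

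In A375, WNT5A read 71.5, 72.8 and 76.7 CPM in controls and 91.8, 92.8 and 93.4 CPM after silencing. It rose by a log2 change of 0.33 ± 0.0370 (adjusted p = 7.76e-08, edgeR) without passing the fold limit. In 1205Lu it read 26.1, 28.8 and 28.05 CPM against 26.1, 25.5 and 26.5 CPM, the groups overlapped, and the log2 change was -0.10 ± 0.0623 (adjusted p = 0.213, edgeR). The interaction was -0.42 ± 0.0671 (adjusted p = 2.16e-05, edgeR).

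The SOX factors differed from one another. SOX9, a neural crest and chondrocyte regulator, fell in A375 from 114.4, 113.8 and 109.8 CPM to 56.2, 57.6 and 55.9 CPM. The 2 groups were far apart, and the log2 change of -1.0002 ± 0.0359 (adjusted p = 6.09e-17, edgeR) lay on the fold limit, so that its call, unlike its fall, is lost under some other settings, such as upper-quartile scaling (-0.98), and kept under others, such as DESeq2 size factors (-1.0032). In 1205Lu, SOX9 fell from 657.2, 636.8 and 654.7 CPM to 567.0, 566.8 and 560.7 CPM, a log2 change of -0.22 ± 0.0178 (adjusted p = 3.69e-09, edgeR). The interaction of 0.79 ± 0.0338 on the log2 scale (adjusted p = 1.61e-15, edgeR) gives the smaller fall in 1205Lu.

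SOX2 was low in A375, with 26, 41 and 32 counts in the si-NT samples and 96, 51 and 61 counts in the si-FOSL1 samples. On the CPM scale it rose from 1.18, 1.62 and 1.33 to 2.94, 2.13 and 2.47, a log2 change of 0.87 ± 0.250 (adjusted p = 5.58e-03, edgeR), and without si-NT replicate 2 the change was 1.00, just past the fold limit. In 1205Lu it rose from 13.2, 13.2 and 14.4 CPM to 19.3, 17.1 and 17.0 CPM, a log2 change of 0.38 ± 0.0871 (adjusted p = 1.53e-03, edgeR). SOX2 was higher in 6 of 6 silenced samples than in the controls of their line, and a difference between the lines did not pass the test (log2 -0.48 ± 0.216, adjusted p = 0.0956, edgeR). SOX2 lies inside SOX2-OT on the same strand, so reads of the longer transcript may be counted in either.

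Of the surface and matrix genes, NT5E moved in opposite directions in the 2 lines. It rose in A375 from 214.5, 209.7 and 209.6 CPM to 290.8, 277.2 and 289.9 CPM, a log2 change of 0.43 ± 0.0251 (adjusted p = 5.48e-13, edgeR). It fell in 1205Lu from 502.3, 514.8 and 513.9 CPM to 322.3, 330.0 and 319.0 CPM, a log2 change of -0.67 ± 0.0198 (adjusted p = 8.23e-16, edgeR). Neither change passed the fold limit, but their difference did, at -1.09 ± 0.0331 (adjusted p = 1.67e-18, edgeR). Before silencing the level in 1205Lu was 2.42-fold that in A375, and after silencing the group means were 323.8 ± 5.68 CPM in 1205Lu and 286 ± 7.59 CPM in A375 (SD, n = 3).

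CD44 fell in A375 from 461.2, 452.9 and 456.1 CPM to 334.0, 343.4 and 339.0 CPM, a log2 change of -0.44 ± 0.0202 (adjusted p = 7.80e-15, edgeR). In 1205Lu it went from 2768, 2747 and 2741 CPM to 2667, 2683 and 2727 CPM; the groups were apart, and the log2 change was -0.05 ± 0.0110 (adjusted p = 1.24e-03, edgeR), which did not pass the test with all 12 samples in one fit (adjusted p = 0.0860, edgeR). The interaction of 0.40 ± 0.0206 (adjusted p = 7.52e-14, edgeR) gives a larger fall in A375. TNC fell in both lines, from 51.7, 56.0 and 54.9 CPM to 48.5, 46.9 and 48.05 CPM in A375 (log2 -0.19 ± 0.0469, adjusted p = 1.90e-03, edgeR) and from 2717, 2742 and 2763 CPM to 2153, 2183 and 2164 CPM in 1205Lu (log2 -0.36 ± 0.0110, adjusted p = 1.71e-15, edgeR). The 2 falls differed by -0.16 ± 0.0304 on the log2 scale (adjusted p = 1.90e-04, edgeR). LOXL2 changed least of the markers in A375, where it read 191.6, 189.4 and 183.8 CPM against 198.1, 194.8 and 185.5 CPM, and the groups overlapped (log2 0.03 ± 0.0282, adjusted p = 0.410, edgeR). In 1205Lu it rose from 394.1, 393.3 and 397.9 CPM to 430.4, 411.0 and 435.9 CPM (log2 0.09 ± 0.0222, adjusted p = 2.47e-03, edgeR), and the interaction did not pass the test (log2 0.07 ± 0.0378, adjusted p = 0.156, edgeR). LOXL2 overlaps ENTPD4 on its own strand. CD44 and AQP1 each overlap a gene without a symbol on their own strand. WNT5A, SOX9, TNC, LOXL2 and CD44 also overlap genes on the other strand.

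AQP1 and NES were the markers called higher in A375. AQP1 read 6.47, 5.89 and 6.84 CPM in controls and 14.8, 14.1 and 12.1 CPM after silencing, a rise of 2.14-fold (log2 1.1 ± 0.112, adjusted p = 1.28e-08, edgeR). In 1205Lu it was near the lower end of detection, with 30, 22 and 16 counts against 18, 19 and 8 counts; the groups overlapped in CPM and a change was not detectable at this depth (log2 -0.34 ± 0.419, adjusted p = 0.568, edgeR). The interaction was -1.42 ± 0.329 (adjusted p = 1.35e-03, edgeR). NES rose in A375 from 19.4, 18.5 and 18.6 CPM to 52.1, 47.5 and 44 CPM, 2.54-fold (log2 1.34 ± 0.0645, adjusted p = 1.49e-14, edgeR), and 2.72% of all genes tested in A375 changed by more. In 1205Lu, where it was far higher at the start, NES rose from 1236, 1218 and 1243 CPM to 1315, 1322 and 1330 CPM (log2 0.08 ± 0.0134, adjusted p = 3.23e-05, edgeR). The interaction was -1.25 ± 0.0524 (adjusted p = 1.23e-15, edgeR).

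**Figure D3:**
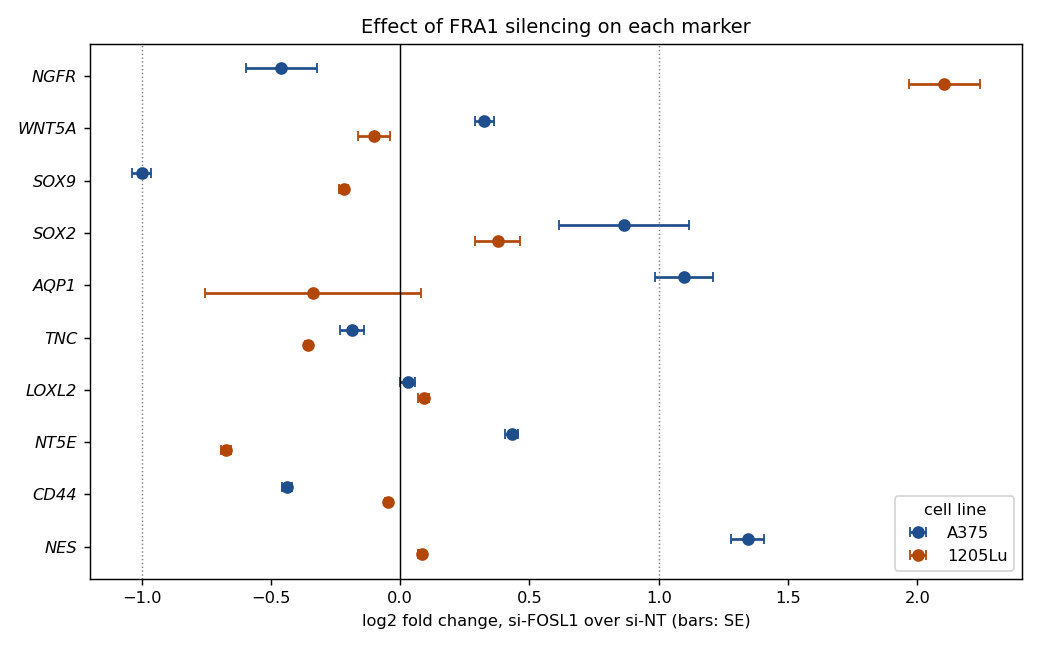
Log2 change upon FRA1 silencing (si-FOSL1 over si-NT) of each marker in A375 (blue) and 1205Lu (orange). Bars are standard errors derived from the edgeR test and dotted lines mark the fold limit. NGFR lies at -0.46 in A375 and 2.1 in 1205Lu, NT5E at 0.43 and -0.67, and LOXL2 close to 0 in both.

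In all, the effect of silencing differed between the lines for 8 of 10 markers at the adjusted p and for 4 with the fold limit (NGFR higher in 1205Lu; AQP1, NT5E and NES lower), where 31.9% and 5.09% of 19452 genes did so in either direction. FOSL1 was also lowered less in 1205Lu; what part this had in the differences was not tested.

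Other genes of the same states, in lists chosen with earlier results of these data known, were measured alongside. Their counts stand beside shares over all tested genes of 25.7% higher and 25.1% lower in A375, and 20.6% and 19.9% in 1205Lu, by the adjusted p. Of 15 neural crest-like genes, 11 were tested in A375, where 4 rose and 2 fell, and 12 in 1205Lu, where 7 rose and 3 fell. A2M, a protease inhibitor, was called in both lines, from 1.75 ± 0.622 to 5.49 ± 0.271 CPM in A375 (SD, n = 3) and from 12.9 ± 0.367 to 54.4 ± 3.58 CPM in 1205Lu. ANXA1, a phospholipid-binding protein, was called in 1205Lu (log2 1.04 ± 0.195, SE). Of 20 undifferentiated or invasive state genes, 19 were tested in each line; 9 rose and 7 fell in A375, and 12 rose and 5 fell in 1205Lu. In A375 the receptor kinase AXL fell from 714.9 ± 5.41 to 191.2 ± 3.27 CPM (SD, n = 3), while IL6 and INHBA, which encode secreted factors, rose by 1.26 ± 0.310 and 1.13 ± 0.0319 on the log2 scale (SE). In 1205Lu, the growth factor receptor PDGFRB (1.16 ± 0.116) and the matrix protein THBS1 (1.03 ± 0.0148) were called higher. The median log2 change of this list was 0.07 in A375 and 0.33 in 1205Lu.

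Of the 16 melanocytic genes, 7 were tested in each line; 3 rose and 1 fell in A375 and 2 rose and 1 fell in 1205Lu, where by the same rule 25.7% of all tested genes rose and 25.1% fell in A375, and 20.6% and 19.9% in 1205Lu. EDNRB, the endothelin receptor of melanoblasts, was called in both, from 4.18 ± 0.573 to 8.71 ± 0.832 CPM in A375 and from 2.55 ± 0.291 to 5.40 ± 0.266 CPM in 1205Lu (SD, n = 3). Of 28 partners of the markers (ligands, receptors, relatives and enzymes of the same reaction), 24 were tested in A375, where 14 rose and 2 fell, and 25 in 1205Lu, where 11 rose and 4 fell. In A375 the water and glycerol channel AQP3 (1.75 ± 0.204), the hyaluronan synthase HAS2 (1.48 ± 0.164), the LOXL2 relative LOXL1 (1.33 ± 0.359) and the SOX factor SOX5 (1.03 ± 0.0553) were called higher on the log2 scale. In 1205Lu the neurotrophin BDNF, a ligand that NGFR can bind, went from 2.71 ± 0.653 to 6.45 ± 1.61 CPM (SD, n = 3; log2 1.22 ± 0.208, SE).

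The third question was where FRA1 Cut&Run signal lay near the markers. Libraries differed in depth over the peaks, with 3354095 to 5316527 counts in the A375 FRA1 samples, 583750 to 897407 in the 1205Lu FRA1 samples, and 383994 and 314569 in the IgG samples of A375 and 1205Lu. The median count of a peak was 30 to 47 in A375 FRA1 samples and 5 to 6 in 1205Lu FRA1 samples, beside 6 and 5 in the IgG samples. Enrichment of a peak needed 10 or more unscaled counts in all FRA1 samples of the line, each also 4 or more times as high as IgG plus 1. It is a rule and not a test, since each line had 1 IgG sample. Every A375 FRA1 total over the peaks was more than 4 times the A375 IgG total. Every 1205Lu FRA1 total was less than 4 times the 1205Lu IgG total. The rule was thus easier to meet in A375, and the numbers enriched in each line are not on a like threshold. Of the 75 peaks near markers, 55 (73.3%) were enriched in A375, 13 (17.3%) in 1205Lu and 9 (12%) in both, where 57.4%, 7.09% and 4.50% of all consensus peaks were. The A375 FRA1 and IgG libraries were also all thinned to a fraction of 0.184, which brings the median FRA1 total to that of 1205Lu. Of the 75 peaks, 26 (34.7%) were then enriched in A375, beside 24.3% of all peaks. The thinned A375 IgG was shallower than the 1205Lu IgG, so this number is not matched in depth to that of 1205Lu. Depth over peaks thus moves with the number enriched. A missing enrichment in 1205Lu does not by itself show an absence of FRA1, and absence was not tested.

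Peaks were unevenly spread over the markers. LOXL2 had 15 within 50 kb, TNC 11, CD44 10, NT5E 9, WNT5A and NES 8 each, SOX9 7, AQP1 4, NGFR 2 and SOX2 1, while the median of 14748 tested protein-coding genes was 4. The genes differ in span, from 2.51 kb for SOX2 to 128 kb for LOXL2, so longer genes had more room. In 64 of 75 peaks the nearest protein-coding start was that of the marker, and the exceptions were 6 of the 8 peaks near NES, which lay closer to BCAN or CRABP2, 4 near LOXL2 and 1 near NT5E. There were 15 peaks at a promoter, meaning within 3 kb of any annotated start, 25 elsewhere in a gene and 35 in the flanks. Such a start could lie well inside the gene.

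**Figure D4:**
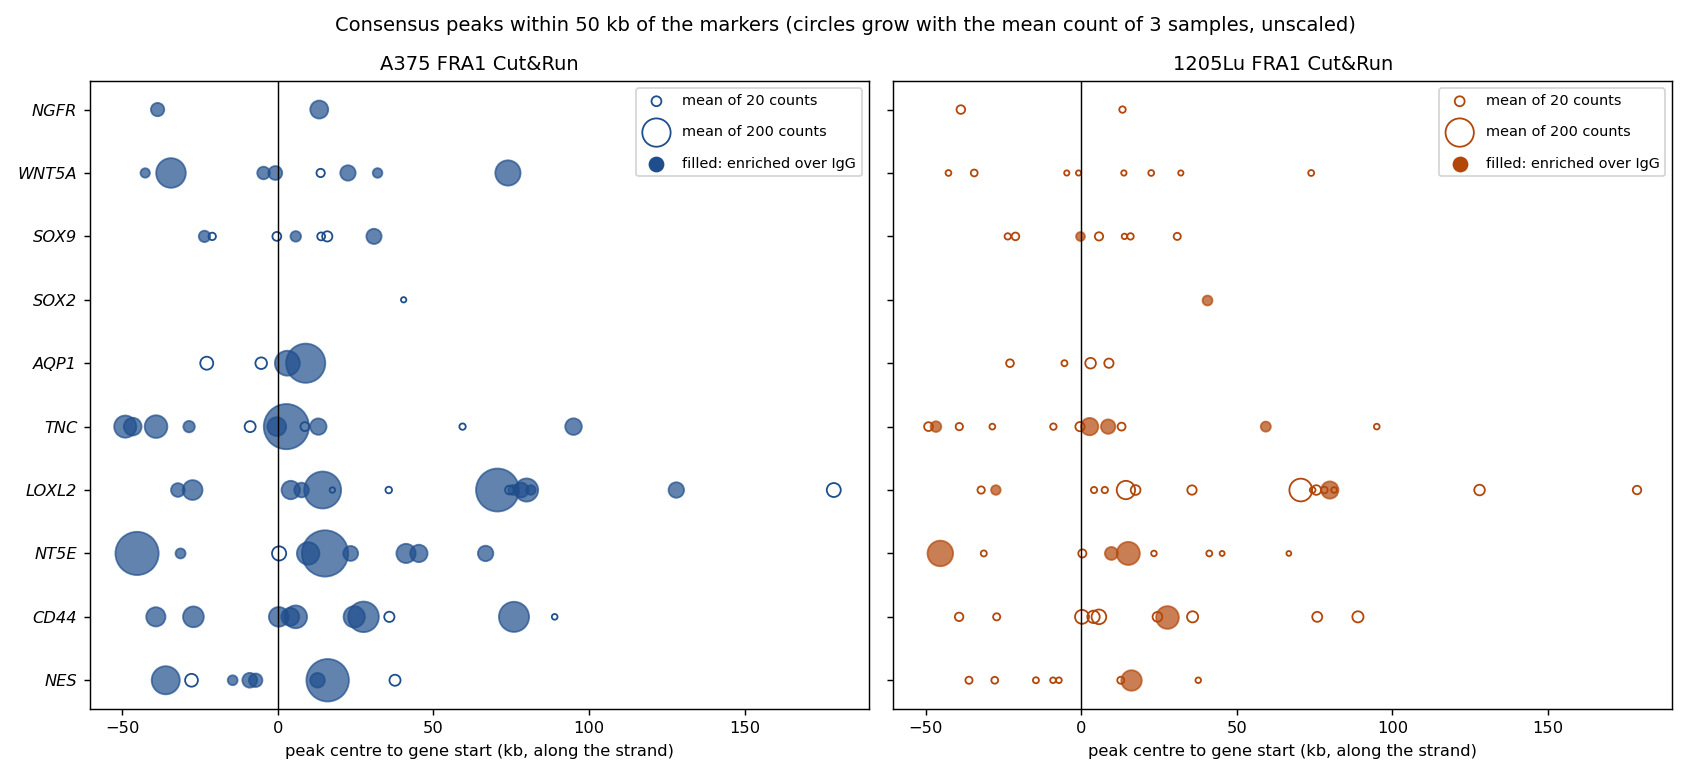
Consensus peaks near each marker by the distance of their centre from the gene start along its strand (kb), in A375 (left) and 1205Lu (right). Circles grow with the mean unscaled FRA1 count of 3 samples and are filled where enriched over IgG, for 55 peaks in A375 and 13 in 1205Lu. These numbers are not on a like threshold, since the rule used unscaled counts.

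NT5E had the strongest signal shared by both lines. Its peak 45271 bp upstream of the start (chr6:85403187-85405439, GRCh38) had 352, 609 and 457 counts in A375 against 10 with IgG, and 96, 221 and 171 counts in 1205Lu against 11 with IgG. An intronic peak (chr6:85463927-85465534) had 401, 685 and 544 counts against 22 in A375, and 87, 195 and 112 against 13 in 1205Lu. A further intronic peak (chr6:85458387-85460211) had 92, 143 and 138 counts against 11, and 21, 44 and 49 against 4. All 3 were enriched in both lines. The NT5E promoter peak at its first start (chr6:85449613-85450312) had 30, 53 and 56 counts against 10 in A375 and 12, 13 and 11 against 6 in 1205Lu, and was enriched in neither. A promoter peak at a later start (chr6:85472625-85473323) was enriched in A375 with 37, 64 and 55 counts against 5. The RNA of NT5E rose in A375 and fell in 1205Lu, beside these shared peaks.

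The strongest TNC peak lay at a promoter, 2725 bp inside the gene (chr9:115114322-115116643), with 362, 703 and 490 counts against 18 in A375 and 48, 94 and 75 against 9 in 1205Lu. A TNC peak 46667 bp upstream (chr9:115164404-115165344) was also enriched in both. The peak at the first TNC start (chr9:115118031-115119127) had 78, 103 and 75 counts against 11 in A375, where it was enriched, and 16, 19 and 16 against 7 in 1205Lu. The TNC promoter peaks chr9:115109214-115109852 (7, 17 and 22 counts against 4 in A375, and 33, 67 and 45 against 4 in 1205Lu) and chr9:115058590-115059147 (4, 9 and 3 against 1, and 18, 20 and 25 against 2) were enriched in 1205Lu only by this rule. The first of these lay 8674 bp past the gene start and the second 59339 bp past it. The first holds the AP-1 site shown above, 87 bp from its centre. For both, the unscaled 1205Lu counts were above the A375 counts in every sample although the 1205Lu libraries were shallower.

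CD44 had 1 peak enriched in both lines, in an intron (chr11:35165587-35167233), with 195, 303 and 204 counts against 17 in A375 and 94, 162 and 126 against 14 in 1205Lu. Its peak at the first start (chr11:35138553-35139751) had 69, 116 and 98 counts against 10 in A375, where it was enriched, and 34, 54 and 46 against 14 in 1205Lu. A promoter peak at a later CD44 start (chr11:35214058-35215450) had 160, 295 and 227 counts against 21 and was enriched in A375, and that at chr11:35174413-35174971 was enriched in neither line. Near NES, the strongest peak (chr1:156660269-156662570) lay 15988 bp past the start and closer to BCAN; it had 352, 569 and 450 counts against 25 in A375 and 73, 128 and 107 against 17 in 1205Lu and was enriched in both. No peak lay at a NES promoter. The strongest LOXL2 peak in A375 was an intronic one with 344, 591 and 467 counts against 21 (80, 173 and 129 against 21 in 1205Lu). Its only promoter peak lay at a later start, 81281 bp past the first. That peak had 21, 18 and 17 counts against 3 in A375 and 6, 4 and 1 against 2 in 1205Lu. LOXL2 had 2 peaks enriched in both lines, 1 in an intron 79921 bp past its start (108, 160 and 129 counts against 9 in A375; 50, 93 and 71 against 5 in 1205Lu) and 1 upstream that lay closer to ENTPD4.

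The other markers showed enrichment in 1 line at most at each peak. Near NGFR, the intronic peak whose sequence is shown (chr17:49508229-49508924) had 67, 89 and 78 counts against 5 in A375, and 4, 6 and 7 against 14 in 1205Lu. The other NGFR peak, 38671 bp upstream (chr17:49456400-49456844), had 33, 47 and 42 counts against 5 in A375 and 11, 20 and 11 against 6 in 1205Lu. Neither NGFR peak was enriched in 1205Lu, the line in which its RNA rose. In the scaled comparison of the lines described below, the upstream peak had a relatively higher count in 1205Lu (log2 1.14, adjusted p = 9.95e-04, edgeR). The intronic peak had a relatively higher count in A375 (log2 -1.1, adjusted p = 5.03e-03, edgeR). That comparison leaves out the IgG samples. At the upstream peak the unscaled FRA1 mean over IgG plus 1 was 6.78 in A375 and 2 in 1205Lu, so more FRA1 binding there in 1205Lu is not shown. WNT5A had 7 of 8 peaks enriched in A375 and none in 1205Lu, led by a peak 34369 bp upstream (chr3:55524356-55525460; 195, 251 and 214 counts against 12 in A375, and 10, 6 and 5 against 4 in 1205Lu). The WNT5A promoter peaks chr3:55490961-55491800, which holds the site shown, and chr3:55467335-55468721 had 32, 59 and 42 counts against 6 and 40, 74 and 53 against 7 in A375, and no more than 7 counts in any 1205Lu FRA1 sample. The first lay 841 bp upstream of the gene start and the second 22511 bp past it. AQP1 had 2 peaks enriched in A375, both within 3 kb of an annotated start and both with the AP-1 site shown. The peak 8920 bp past the gene start (chr7:30919971-30921576) had 341, 450 and 374 counts against 19 in A375 and 26, 14 and 11 against 23 in 1205Lu. The peak 3027 bp past it (chr7:30914360-30915401) had 110, 191 and 162 against 5 in A375 and 15, 27 and 30 against 27 in 1205Lu.

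At the SOX9 start (chr17:72120449-72120892) there were 14, 18 and 14 counts against 2 in 1205Lu, which was enriched, and 15, 18 and 12 against 5 in A375, which was not. The strongest A375 peak near SOX9 lay 30875 bp past the start (chr17:72151269-72152521) with 40, 61 and 62 counts against 5. The only SOX2 peak, 40410 bp past the start (chr3:181752121-181752550), had 18, 24 and 19 counts against 2 in 1205Lu and 3, 2 and 2 against 1 in A375.

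FRA1 counts were compared between the lines in edgeR over all consensus peaks, scaled by TMM and without the IgG samples. Of 69 peaks near markers that were tested, 46 differed at an adjusted p of 0.05, 28 with relatively more in 1205Lu and 18 with more in A375, where 28.1% and 34.5% of all 45588 tested peaks did so. Of the 28, 11 were enriched over IgG in 1205Lu and 17 were not, whereas all 18 with more in A375 were enriched in A375. Scaling sets the direction here: with no scaling between libraries, 6 peaks had more in 1205Lu and 59 more in A375. With scaling, the SOX2 peak (log2 difference 5.68), the TNC promoter peaks chr9:115058590-115059147 (4.61) and chr9:115109214-115109852 (4.32) and the SOX9 start peak (2.7) were higher in 1205Lu. So were the 3 NT5E peaks enriched in both lines (1.14, 0.63 and 0.97). Among the 18 higher in A375 were the WNT5A peak chr3:55524356-55525460 (-2.29) and the AQP1 peak chr7:30919971-30921576 (-1.83). The strongest TNC promoter peak (-0.14, adjusted p = 0.467, edgeR) and the one at its first start (0.36, adjusted p = 0.202, edgeR) did not pass the test.

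Among the 75 peaks near markers, 22 held the AP-1 site no more than 100 bp from the centre (29.3%, 95% Wilson interval 20.2 to 40.4, counting error only), as did 28.6% of all consensus peaks. Of the 55 peaks enriched in A375 it was held by 32.7%, beside 34.0% of all peaks enriched there. Of the 13 peaks enriched in 1205Lu, 2 held it (15.4%, beside 30.4% of all peaks enriched there), and of the 9 enriched in both lines, 1 did (11.1%, beside 36.7%). These low shares hold for the window around the centre only. Over whole peaks, 76.9% of the 13 held the site, beside 70.8% of all peaks enriched in 1205Lu. Of the 9, 88.9% did, beside 81.4% of all peaks enriched in both lines.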

How the data were processed

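Deposited gene values were expected counts as whole numbers, which the authors made by trimming with cutadapt 1.8.1, alignment to GRCh38 with STAR 2.7.7a and gene-level estimation with RSEM 1.3.0. Peak values were raw counts per consensus peak, deposited by the authors after alignment with Bowtie2 2.4.1 and MACS2 2.1.1.20160309 peak calling.

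Genes were filtered (filterByExpr), scaled by TMM and tested with edgeR 4.0.16 (R 4.3.3), si-FOSL1 over si-NT within each line, and as an interaction and a contrast of lines over all 12 samples. The standard error of a log2 change was derived as its absolute value over the square root of the F statistic of the test. It is approximate at low counts. DESeq2 1.42.0 and other settings were alternatives. The test was checked on simulated data, with changes larger than most reported here and in genes with ample counts. That check does not cover small changes or low counts. Gene positions came from GENCODE 44, a later release than the authors counted with, which held 99.4% of the gene IDs. The named genes of the lists were the called genes with the largest change, at most 4 per list and line, with a mean of at least 1 CPM. A gene that met this rule is not reported here. Members and lists were chosen with earlier results of these data known.

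Replicates 2 and 3 of 1205Lu FRA1 were to count as 1 sample if their counts differed by no more than sampling noise. At the minimum first computed, 20 summed counts per peak, the chi-square per degree of freedom was 1.06 over 18088 peaks, above the limit set for this, so all 6 FRA1 samples entered the peak test. Minimums of 10, 40, 50 and 100 were computed afterwards and gave 1.08, 1.01, 1.01 and 1.01; at the last 3 the pair fell under the limit while the other 1205Lu pairs gave 1.48 or more. Whether these are 2 independent libraries therefore depends on the minimum and was not settled, and the pair summed as 1 sample was added as an alternative after this was seen.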

Additional observations from a re-analysis of the deposited data

Results flagged for a closer look

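For 4 markers the effect of FRA1 silencing differed between the lines by the interaction test of edgeR with the fold limit, given as the 1205Lu log2 change minus the A375 log2 change. NGFR differed by 2.58, with a fall in A375 and a rise in 1205Lu, and the silenced samples were apart from the controls in both lines. The fall in A375 did not pass the test without si-NT replicate 1 (-0.34, adjusted p = 0.0639, edgeR). NT5E differed by -1.09, with a rise in A375 and a fall in 1205Lu. NES differed by -1.25 and AQP1 by -1.42, each rising in A375. AQP1 had 8 to 30 counts per sample in 1205Lu, where its change had a standard error of 0.419. FOSL1 was lowered less in 1205Lu, and the part of this in the 4 differences was not tested.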

How the results depend on the processing

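No marker changed direction in any alternative tried. Leaving out 1 sample at a time gave 2 to 3 markers called in A375, 1 in 1205Lu, 4 for the interaction and 10 between the lines. SOX9 in A375 dropped below the fold limit with upper-quartile scaling (-0.98), without the filter on low counts (-0.97), with all 12 samples in one fit (-0.9951), and without si-NT replicate 1 or 2 or si-FOSL1 replicate 1 or 3 (-0.99 each). Without the filter LOXL2 differed between the lines by 0.96, where the median of all genes shifted by -0.1116. By adjusted p alone, 9 markers passed in A375, 8 in 1205Lu and 8 for the interaction. NGFR in A375 lost this without si-NT replicate 1 (adjusted p = 0.0639, edgeR), and CD44 in 1205Lu without the filter (0.293) and with all 12 samples in one fit (0.0860), while LOXL2 gained it for the interaction without 1205Lu si-FOSL1 replicate 2 (0.0286). With the replicate block, 3, 1 and 4 markers were called, and the block moved calls over all genes from 939 to 932, 536 to 510 and 990 to 938. Deviations of same-numbered samples from their group means had correlations from -0.042 to 0.059. With 3 samples per group this does not settle whether the numbers pair the samples.

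Enriched peaks near markers numbered 24 in 1205Lu and 19 in both lines at 2 times IgG. At 8 times IgG they were 27 in A375, 2 in 1205Lu and 2 in both. Within 10 kb, 36 were enriched in A375. Within 50 kb, 26 were enriched in A375 with its FRA1 and IgG libraries thinned alike. Leaving out a sample gave 55 to 60 in A375, 13 to 17 in 1205Lu and 38 to 44 peaks that differed between the lines. Summing 1205Lu FRA1 replicates 2 and 3 as 1 sample, an alternative chosen after seeing the data, gave 46 of 74 tested, 28 with more in 1205Lu and 18 with more in A375; keeping them as 2 samples is the fit reported. Without scaling 65 of 69 differed. The AP-1 site was in 66.7% of whole peaks near markers and 57.7% of all whole peaks. AQP1 in 1205Lu had at most 30 counts, and 1205Lu FRA1 libraries were shallower than those of A375.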
